A study of Mus musculus with 20 samples.

Results

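The genes studied here make, sense and remove adenosine in the mouse kidney. They are 9 genes: Entpd1 and Nt5e, which break down extracellular ATP and AMP, the adenosine receptor genes Adora1, Adora2a, Adora2b and Adora3, and Ada, Adk and Slc29a1, which remove or carry adenosine. They were chosen by name, by a rule that uses no measured value, although results of these data were already known when the list was drawn up. Their measurements are those of every probe whose gene name in the array files is one of these 9, which gave 16 probes out of 41174 and 9 gene names out of 27827. Whole kidney RNA was hybridised to 20 single-colour Agilent arrays, 4 in each of 5 groups. All animals were male C57BL/6 mice of 8 to 12 weeks. Control mice had neither surgery nor treatment, so that the series holds no group opened without clamping. IRI mice (ischemia and reperfusion injury) had both renal pedicles clamped for 45 minutes under Ketamine-Xylazine and were killed after 6 h of reperfusion. IRI+Hemin mice received Hemin, an inducer of heme oxygenase 1, intraperitoneally at 25 mg/kg, 24 h before the same surgery. IPC+IRI mice had been preconditioned by 15 min of clamping 7 days before the same surgery. Hemin mice received the drug at 25 mg/kg with no ischemia.

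ATP that leaves stressed or injured cells is cut to AMP by the ectonucleotidase CD39, the product of Entpd1, and AMP is cut to adenosine by CD73, the product of Nt5e. Adenosine acts on G protein-coupled receptors, of which the A1 and A3 types lower cyclic AMP and the A2a and A2b types raise it, and it is known in the kidney for constricting afferent arterioles through A1 and for protecting against ischemia through A2a and A2b. The signal ends when the equilibrative transporter ENT1, the product of Slc29a1, takes adenosine into the cell, where adenosine kinase (Adk) turns it back into AMP and adenosine deaminase (Ada) turns it into inosine.

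Probe sequences are shown for 6 of the 16 probes, because each reads a stretch of RNA rather than a whole gene and the values of several genes depended on which stretch was read. Each has 60 bases, is written 5′ to 3′ in the direction of the transcript and is free of stop codons in at least 1 reading frame. Positions are on mm9, as the array files annotate them.

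Adora2b, A_52_P419455: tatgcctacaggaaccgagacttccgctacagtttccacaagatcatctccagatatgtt
Adora2a, A_52_P240878: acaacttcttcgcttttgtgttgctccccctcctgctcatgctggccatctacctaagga
Adora1, A_51_P188845: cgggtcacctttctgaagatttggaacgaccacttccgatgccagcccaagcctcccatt
Adora3, A_52_P31697: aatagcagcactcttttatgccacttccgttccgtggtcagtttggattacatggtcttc
Listed as Adora3, A_51_P382789: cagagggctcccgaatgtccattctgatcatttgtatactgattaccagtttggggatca
Nt5e, A_51_P156740: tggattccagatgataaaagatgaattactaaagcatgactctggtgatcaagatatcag

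The Adora2b probe is the only probe of that gene and lies at chr11:62079096-62079155 on the plus strand. The Adora2a probe lies at chr10:74795972-74796031 on the plus strand, and a second probe of the gene, A_51_P387348, starts 1319 bases downstream of its end. The Adora1 probe lies at chr1:136099564-136099623 on the minus strand, upstream of the other 2 probes of that gene. The first Adora3 probe lies at chr3:105710334-105710393 on the plus strand. The probe listed as Adora3 at chr3:105721698-105722939 is annotated with the transcript NM_027025, which RefSeq now gives to Tmigd3, a gene of the same locus. The Nt5e probe spans 967 bases of the genome at chr9:88264041-88265007 on the plus strand, so that its 60 bases join sequence from both sides of an intron. Ada, Adk, Adora2b and Slc29a1 had 1 probe each, Entpd1, Nt5e and Adora2a had 2, and Adora1 and Adora3 had 3.

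Values are given as log2 expression, the log2 of a gene's background-subtracted signal over the 75th percentile of its array, with the signals of several probes averaged before the logarithm. A level of 0 therefore equals the 75th percentile, and a difference of 1 is a doubling. Of the genes on each array, 57.4% to 67.5% were well above background, and the 75th percentile lay between 146.7 and 357.9 intensity units. The 5 groups were on 5 slides, and slide and group cannot be told apart in any comparison. The first scan day held the Control and IRI slides, the second the IRI+Hemin slide and the third the slides of IPC+IRI and of Hemin, so that groups scanned together are compared only in IRI vs Control and in IPC+IRI vs Hemin. Replicates are separate samples by their labels and are not stated to be separate animals, so p-values measure the spread between these samples. The proximal tubule genes Lrp2, Cubn, Slc34a1, Slc5a2, Slc22a6 and Slc5a12 were above background on every array, as the kidney label requires. In bulk tissue, fewer cells of a type and less RNA per cell cannot be told apart.

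Entpd1, Adora2b and Ada were higher and Adora2a was lower after ischemia and reperfusion. In IRI vs Control these were 3 members past the test in the higher direction, where 16.5% of all tested genes were called higher, and 1 in the lower direction, where 32.9% were called lower. The test was limma's moderated test, its p-values were adjusted by Benjamini-Hochberg over all genes tested in the comparison, and a call is an adjusted p-value under 0.05. All 9 members were tested in every comparison, and the remaining 5 did not pass in this one. The median difference of the members was 0.03 on the log2 scale, against −0.17 over all genes tested. Set against IRI, IRI+Hemin had 3 members higher (background 25.3%) and 0 lower (17.4%), while IPC+IRI had 0 higher (25.1%) and 2 lower (17%). Hemin vs Control had 0 members higher (17.5%) and 1 lower (17%). Against Control, IRI+Hemin had 5 members higher (23.8%) and 1 lower (32.5%), and IPC+IRI had 2 higher (22.6%) and 2 lower (32.1%). IPC+IRI vs Hemin had 3 members higher (12.6%) and 0 lower (21.8%). A test of whether the response to Hemin differed between injured and uninjured kidneys called 1 member higher (5.34%) and 0 lower (1.6%). These comparisons share groups and are not independent of each other, and with 9 members a difference of 1 or 2 calls from the background shares says little about them as a set. A lack of overlap between groups was common. From 37.6% (Hemin vs Control) to 47.2% (IRI+Hemin vs Control) of all tested genes showed it, with 46.1% in IRI vs Control.

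**Figure D1:**
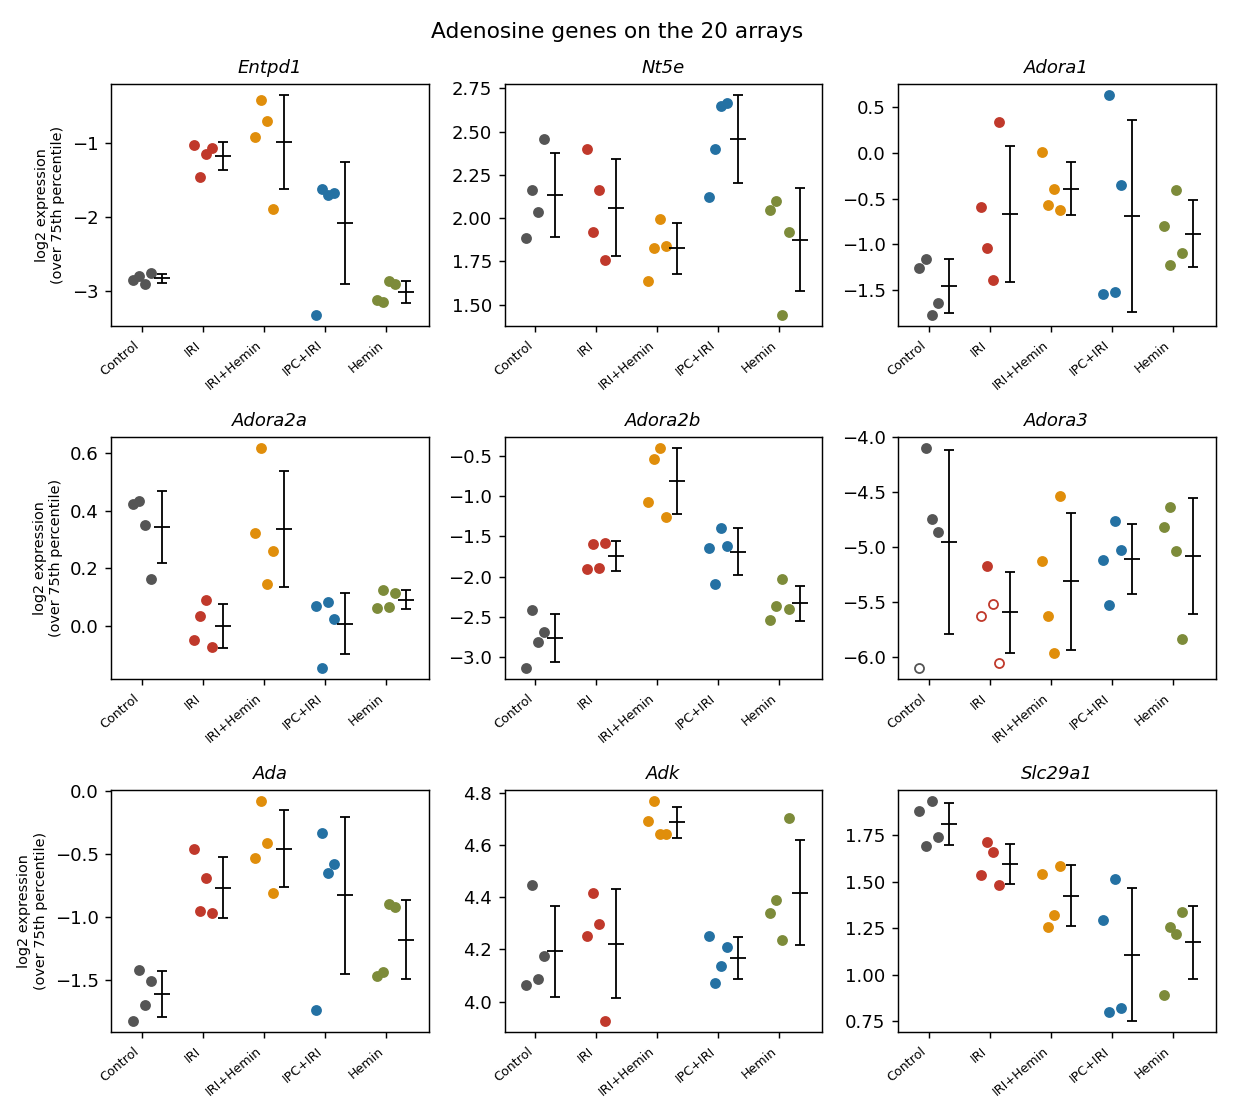
Log2 expression of the 9 genes (vertical axes, each panel with its own range) on each array of the 5 groups (horizontal axes). Points are arrays, open points are arrays on which no probe of the gene was well above background, and the bars give the mean and SD of 4 arrays. Entpd1 was between −1.46 and −1.03 on the 4 IRI arrays and between −2.90 and −2.76 on the 4 Control arrays.

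Entpd1 encodes CD39, the first enzyme of the extracellular path. Its log2 expression was −2.84, −2.80, −2.90 and −2.76 on the Control arrays and −1.03, −1.46, −1.15 and −1.07 on the IRI arrays, so the groups did not overlap. The difference was 1.64 on the log2 scale (SE 0.32, 95% interval 0.97 to 2.32, adjusted p = 0.000428, higher in 4 of 4 arrays), a fold change of 3.12. An exact permutation test of the same 8 arrays, two-sided, gave p = 0.0286, which is the smallest p this design allows. Both probes rose in IRI vs Control, by 1.35 (SE 0.32) for A_51_P504337 and by 2.31 (SE 0.38) for A_52_P21835 on the log2 scale, although the second was above background on only 3 of 4 Control arrays. The difference was also called in each of the 19 alternative settings that gave an adjusted p, with values from 0.83 to 1.87.

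In the IRI+Hemin arrays, log2 expression of Entpd1 was −0.92, −0.43, −0.71 and −1.89, a range that held every IRI value. It was 1.83 above Control (SE 0.32, adjusted p = 0.000127). Against IRI the probes differed in sign, with 0.55 for A_51_P504337 (adjusted p = 0.17) and −0.62 for A_52_P21835 (adjusted p = 0.197), and neither passed. In the Hemin arrays without ischemia it was −3.12, −3.15, −2.87 and −2.89, of which 2 lay below every Control array and 2 among them. The IPC+IRI arrays did not lie together: replicates 2, 3 and 4 had −1.62, −1.71 and −1.68, whereas replicate 1 had −3.31, below every Control array. That replicate also had the lowest summed signal of the group for endothelial markers (7.93, against 13.6 to 22.3 on the other 3 arrays), for fibroblast and pericyte markers (6.30, against 11.2 to 15.2) and for leukocyte markers (7.60, against 8.72 to 21.6). It was lowest as well for erythroid markers (10.6, against 21.5 to 54.2) and podocyte markers (2.01, against 2.41 to 2.55). Its sums were the highest for proximal tubule markers (266.1, against 206.8 to 255.5) and for thick limb and distal tubule markers (372.5, against 252.2 to 290). The collecting duct sum lay within the range of the other arrays. The part of these cells in the Entpd1 value was not tested.

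Entpd1 fell in IPC+IRI vs IRI by 0.90 on the log2 scale (SE 0.32, adjusted p = 0.0312), with each of the 4 IPC+IRI arrays below each IRI array. In the same comparison 4 of 6 endothelial markers were called lower and 0 higher (Cdh5 −1.54, Pecam1 −1.16, Tie1 −1.13 and Tek −0.63 on the log2 scale), 3 of 3 tested erythroid markers were lower, Hba-a1 by −1.71 and Hbb-b1 by −1.61 among them, and 2 of 8 leukocyte markers were higher, Emr1 by 1.67 and Itgam by 1.46. Their part in the Entpd1 difference was not tested. Without IPC+IRI replicate 1 the difference was −0.49 (adjusted p = 0.111), and the call was also lost without IRI replicate 1, 3 or 4 (adjusted p from 0.0599 to 0.0687), with the brighter probe alone (−0.63, adjusted p = 0.121), without normalization between arrays (−0.58, adjusted p = 0.32) and in a fit of the compared arrays alone (adjusted p = 0.0856). IPC+IRI vs Control was 0.74 (SE 0.32) with an adjusted p of 0.0577, and 1.15 (adjusted p = 0.000664) without IPC+IRI replicate 1. Within a single scan day, Entpd1 was 0.93 higher in IPC+IRI than in Hemin (SE 0.32, adjusted p = 0.0325), although IPC+IRI replicate 1 lay below all Hemin arrays, and leaving out IPC+IRI replicate 2, 3 or 4 or Hemin replicate 1, 2 or 4 ended the call (adjusted p from 0.0509 to 0.103), as did normexp background correction (0.52, adjusted p = 0.0633), signals without normalization between arrays (0.80, adjusted p = 0.206), the brighter probe alone (0.82, adjusted p = 0.058) and a fit of the compared arrays alone (adjusted p = 0.0822).

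Nt5e encodes CD73, which makes adenosine from AMP. Log2 expression of Nt5e was 1.88, 2.16, 2.04 and 2.45 in Control and 2.40, 1.92, 2.16 and 1.76 in IRI. The groups overlapped, with a difference of −0.08 (SE 0.18, 95% interval −0.45 to 0.30), so the rise of Entpd1 at 6 h was not accompanied by a detectable difference of Nt5e. The highest mean was that of IPC+IRI, with 2.12, 2.40, 2.65 and 2.67, and all 4 lay above the Hemin values of 2.04, 2.10, 1.44 and 1.92. The difference of IPC+IRI from Hemin was 0.58 (SE 0.18, adjusted p = 0.0177), and it was not called without IPC+IRI replicate 3 or 4 or Hemin replicate 3 (adjusted p from 0.0516 to 0.0692), with normexp background correction (0.41, adjusted p = 0.13), without normalization between arrays (0.46, adjusted p = 0.206) or with the mean of the log2 values of both probes (0.52, adjusted p = 0.0675). IPC+IRI vs IRI was 0.40 (SE 0.18) and missed the threshold (adjusted p = 0.0806), but passed it without IRI replicate 1 (adjusted p = 0.0387) or IPC+IRI replicate 1 (adjusted p = 0.038).

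These values follow the brighter of the Nt5e probes. That probe, A_52_P574668, had a mean log2 expression of 3.43 ± 0.25 in IPC+IRI (SD, n = 4), against 3.01 ± 0.24 in Control, 2.94 ± 0.29 in IRI, 2.84 ± 0.30 in Hemin and 2.80 ± 0.15 in IRI+Hemin. On this probe alone IPC+IRI vs IRI passed, at 0.49 (SE 0.18, adjusted p = 0.0372), and with the mean of the log2 values of both probes in place of the mean signal the difference was −0.48. The dimmer probe across the intron, A_51_P156740, gave −0.48, −1.60, −0.40 and 0.23 in Control and −0.19, −1.23, −0.61 and −0.46 in IRI. It gave −2.78, −2.94, −2.53 and −3.01 in IRI+Hemin, −2.71, −1.91, −1.87 and −1.81 in IPC+IRI, and −2.74, −2.11, −2.76 and −2.52 in Hemin. Every array of the later scan days was thus below every array of the first day for this probe, with IRI+Hemin vs IRI at −2.19 (SE 0.31, adjusted p = 4.3e-05) and Hemin vs Control at −1.97 (SE 0.31, adjusted p = 0.0003), while the difference within the first day was −0.06 (SE 0.31) and within the third day 0.46 (SE 0.31). Scan day, slide and group cannot be told apart for this probe.

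**Figure D2:**
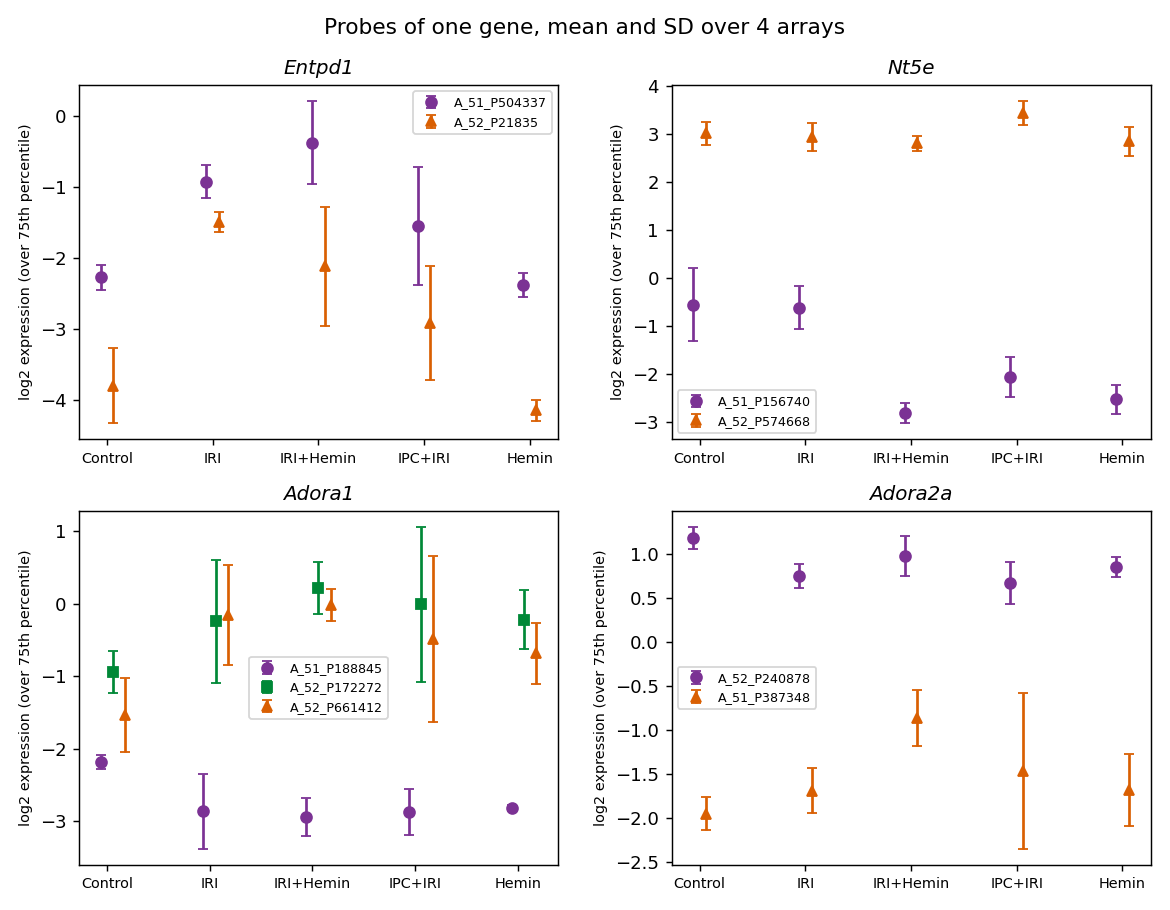
Log2 expression (vertical axes) of each probe of Entpd1, Nt5e, Adora1 and Adora2a in the 5 groups (horizontal axes). Points are means and bars are SD over 4 arrays, with purple circles for the upstream probe of a transcript, orange triangles for the probe farthest downstream and green squares for the middle probe of Adora1. The upstream Adora1 probe went from −2.18 in Control to −2.86 in IRI while the probe farthest downstream went from −1.54 to −0.16.

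Adora2b encodes the A2b receptor, which binds adenosine with low affinity. It was the receptor gene with the clearest differences between groups. The Control arrays had a log2 expression of −3.13, −2.41, −2.81 and −2.68, the IRI arrays −1.91, −1.59, −1.89 and −1.58, and the IRI+Hemin arrays −1.07, −0.55, −0.40 and −1.26. No array of these 3 groups overlapped another group. The difference was 1.02 in IRI vs Control (SE 0.20, 95% interval 0.59 to 1.44, adjusted p = 0.000507, fold change 2.02) and a further 0.92 in IRI+Hemin vs IRI (SE 0.20, adjusted p = 0.00158, fold change 1.90). IRI+Hemin vs Control was 1.94 (SE 0.20, adjusted p = 8.37e-07), a fold change of 3.83. All 3 differences were called in each of 19 alternative settings that gave an adjusted p. SAM, the permutation-based test of the study's methods, run at a false discovery rate of 0, kept IRI+Hemin vs Control but not the other two, and IRI vs Control also missed the fold cutoff of the methods. Over all members SAM kept 4 of 23 calls.

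Preconditioned kidneys had Adora2b at −1.65, −2.09, −1.40 and −1.62, close to the IRI values. IPC+IRI vs IRI was 0.05 (SE 0.20, 95% interval −0.37 to 0.48), and IPC+IRI vs Control was 1.07 (SE 0.20, adjusted p = 0.000276), or 0.34 and not called with normexp background correction (adjusted p = 0.123). Hemin alone gave −2.53, −2.37, −2.03 and −2.40, which overlapped Control only between Hemin replicate 1 and Control replicate 2, and the difference of 0.43 (SE 0.20) missed the threshold (adjusted p = 0.11). Other settings moved it both ways, to −0.10 with normexp background correction, to 0.60 with quantile normalization (adjusted p = 0.0296) and to 0.99 without normalization between arrays (adjusted p = 0.0134), where the median over all genes was 0.62. The test of a different response to Hemin with and without injury gave 0.50 for Adora2b (SE 0.29, adjusted p = 0.336) and did not pass. Within the third scan day, IPC+IRI was 0.64 above Hemin (SE 0.20, adjusted p = 0.0202), a call that ended without IPC+IRI replicate 3 (adjusted p = 0.064) or Hemin replicate 1 (adjusted p = 0.0601), with normexp background correction (0.43, adjusted p = 0.0842) and without normalization between arrays (0.51, adjusted p = 0.24).

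Adora2a encodes the A2a receptor, a high-affinity receptor of leukocytes and vessels. Log2 expression of Adora2a was 0.42, 0.43, 0.35 and 0.16 in Control and −0.05, 0.04, 0.09 and −0.07 in IRI. It fell in IRI vs Control by 0.34 on the log2 scale (SE 0.11, adjusted p = 0.0142), a fold change of 1.27, with no overlap. IPC+IRI values were 0.07, −0.14, 0.08 and 0.03, again below all Control arrays (difference −0.33, SE 0.11, adjusted p = 0.0142). IRI+Hemin values were 0.32, 0.62, 0.15 and 0.26, and all were above the IRI values (difference 0.33, SE 0.11, adjusted p = 0.0185). Hemin values without ischemia were 0.06, 0.13, 0.07 and 0.12, all below Control, and this difference of −0.25 (SE 0.11) missed the threshold with an adjusted p of 0.0799. It was called with quantile normalization (−0.29, adjusted p = 0.02) and with the percentile of probes above background on all arrays (−0.36, adjusted p = 0.00935), and it turned to 0.32 without normalization between arrays and to 0.12 in the deposited matrix, neither called.

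These calls were sensitive to how signals were scaled and probes combined. IRI vs Control was not called with the mean of the log2 values of the probes (−0.09, adjusted p = 0.67), with normexp background correction (−0.24), without normalization between arrays (−0.22) or in the deposited matrix (−0.34, adjusted p = 0.208), and IPC+IRI vs Control was 0.10 without normalization between arrays and 0.024 in the log2 values of the deposited matrix, in which probe A_51_P387348 was blank on 4 arrays. IPC+IRI vs Control was also not called with the mean of the log2 values (−0.01, adjusted p = 0.949), with normexp background correction (−0.26, adjusted p = 0.11) or in a fit of the compared arrays alone (adjusted p = 0.0512).

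With Hemin, Adora2a thus differed by 0.33 in injured kidneys and by −0.25 in uninjured ones, of which only the first passed. The test of the difference between both responses gave 0.58 on the log2 scale (SE 0.15, adjusted p = 0.0265). It was lost without Control replicate 1, IRI replicate 1, IRI+Hemin replicate 2, Hemin replicate 1 or Hemin replicate 3 (adjusted p from 0.0505 to 0.0575), and IRI+Hemin vs IRI was lost without IRI+Hemin replicate 2 (difference 0.24, adjusted p = 0.0769), with the brighter probe alone (0.22, adjusted p = 0.203), in the deposited matrix (adjusted p = 0.226) and in a fit of the compared arrays alone (adjusted p = 0.0957). The test of both responses also failed in 5 other settings, among them the deposited matrix (0.21, adjusted p = 0.762) and signals without normalization between arrays (0.38, adjusted p = 0.597). The probes did not share the fall in IRI vs Control: A_52_P240878, the brighter, fell by 0.43 (SE 0.14, adjusted p = 0.0167), and A_51_P387348 differed by 0.26 (SE 0.32, adjusted p = 0.533). In IRI+Hemin vs IRI the dimmer probe rose by 0.82 (SE 0.32, adjusted p = 0.0452) and the brighter one differed by 0.22 (SE 0.14, adjusted p = 0.203). In Hemin vs Control the probes differed in sign, with −0.33 for A_52_P240878 (adjusted p = 0.0728) and 0.27 for A_51_P387348 (adjusted p = 0.538). The test of a different response to Hemin gave 0.56 (SE 0.20, adjusted p = 0.0993) and 0.55 (SE 0.46, adjusted p = 0.527) for these probes, about as large as for the gene and with neither passing.

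Adora1 encodes the A1 receptor, the target through which adenosine constricts the afferent arteriole. Averaged over its 3 probes, log2 expression was −1.26, −1.16, −1.77 and −1.64 in Control and −0.59, −1.04, −1.39 and 0.34 in IRI. The groups overlapped, and the difference of 0.79 (SE 0.41) missed the threshold (adjusted p = 0.124). With single arrays left out it ran from 0.45 to 1.03 and was never called. IRI+Hemin values were 0.01, −0.57, −0.40 and −0.62, all above Control, with a difference of 1.06 (SE 0.41, adjusted p = 0.0361). That call ended without Control replicate 3 or 4 or IRI+Hemin replicate 1, 2 or 3 (adjusted p from 0.0503 to 0.0942), with the mean of the log2 values of the 3 probes (0.64, adjusted p = 0.13), with normexp background correction (0.62, adjusted p = 0.115) and with the percentile of probes above background on all arrays (0.95, adjusted p = 0.0661). The probes behind this call differed in sign. In IRI+Hemin vs Control A_51_P188845 fell by 0.76 (SE 0.21, adjusted p = 0.00501). In the same comparison A_52_P661412 rose by 1.52 (SE 0.45, adjusted p = 0.0077) and A_52_P172272 by 1.16 (SE 0.44, adjusted p = 0.0326). IPC+IRI arrays were the most scattered, at −1.54, 0.63, −1.52 and −0.35, and their difference from Control of 0.76 (SE 0.41) was called without replicate 1 (1.05, adjusted p = 0.0463) or replicate 3 (1.04, adjusted p = 0.0497). Over all arrays left out singly this difference ran from 0.32 to 1.05, with an adjusted p of up to 0.476.

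The Adora1 value was an average of probes that moved in opposite directions. The upstream probe A_51_P188845, printed above, had −2.11, −2.11, −2.18 and −2.31 in Control and −3.00, −3.06, −3.27 and −2.11 in IRI, and fell by 0.68 on the log2 scale (SE 0.21, adjusted p = 0.0119). The probe farthest downstream, A_52_P661412, which starts 3523 bases beyond its end, had −1.04, −1.21, −2.15 and −1.75 in Control and 0.08, −0.50, −0.90 and 0.70 in IRI, and rose by 1.38 (SE 0.45, adjusted p = 0.0166). The middle probe A_52_P172272 differed by 0.70 (SE 0.44, adjusted p = 0.206). In Hemin vs Control the upstream probe fell by 0.64 (SE 0.21, adjusted p = 0.0253), from a mean of −2.18 ± 0.10 to −2.81 ± 0.05 (SD, n = 4), and the downstream probe differed by 0.85 (SE 0.45, adjusted p = 0.146).

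The distance in log2 expression between the downstream and the upstream probe was computed on each array, which removes any factor common to the whole array. For Adora1 it grew by 2.07 in IRI vs Control, from a range of 0.03 to 1.07 to a range of 2.37 to 3.08. It also grew against Control, without overlap, by 1.74 in IPC+IRI, by 2.28 in IRI+Hemin and by 1.49 in Hemin kidneys that had no ischemia. For Adora2a it moved by 0.69 in IRI vs Control, without overlap of the groups, and for Entpd1 by 0.96. The Entpd1 value rests in part on Control replicate 2, where the downstream probe was not well above background, and was 0.62 without that array. Against Control the distance for Entpd1 moved by −0.22 in IRI+Hemin and by 0.17 in IPC+IRI, with overlap of the groups, and by −0.56 and −0.17 without that array, so that no direction is given for IPC+IRI. For Nt5e it moved by −0.01 in IRI vs Control and by 1.80 to 2.05 in each of the 5 comparisons between the first scan day and a later one. In IRI vs Control an exact permutation test, two-sided, gave p = 0.943 for Nt5e and p = 0.0286, the smallest possible, for each of the others, which became 0.0533 after Benjamini-Hochberg adjustment over the 28 tests of this kind. What separates the probes was not tested.

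Adora3 encodes the A3 receptor, known from mast cells and other leukocytes. Its values are near the background of the arrays. The probe of the Adora3 transcript NM_009631, printed above, was well above background on 3 of 4 Control arrays, 1 of 4 IRI arrays and all 4 arrays of each of the other groups. The other 2 probes that the array lists under Adora3, among them the Tmigd3 probe, were well above background on 0 of 20 arrays. Gene log2 expression was −6.10, −4.10, −4.75 and −4.86 in Control and −5.63, −5.17, −5.52 and −6.06 in IRI, with a difference of −0.64 (SE 0.38, adjusted p = 0.166). By the NM_009631 probe alone the difference was −0.51 (adjusted p = 0.525). These are differences between signals mostly at background in IRI, and no fold is read from them. Leaving out Control replicate 1, on which no probe was above background, brought the gene value past the threshold (adjusted p = 0.0199). Over all arrays left out singly the difference ran from −1.02 to −0.36, with an adjusted p of up to 0.458. No comparison called Adora3, and its 95% interval in IRI vs Control, was wide, from −1.43 to 0.15.

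Ada encodes adenosine deaminase, which turns adenosine into inosine. Ada had a log2 expression of −1.83, −1.42, −1.70 and −1.51 in Control and −0.46, −0.96, −0.69 and −0.97 in IRI, without overlap. The difference was 0.85 (SE 0.25, 95% interval 0.32 to 1.37, adjusted p = 0.00951), a fold change of 1.80, or 0.51 with normexp background correction (adjusted p = 0.0777). IRI+Hemin values were −0.53, −0.08, −0.41 and −0.82, which made 1.16 over Control (SE 0.25, adjusted p = 0.000842, fold change 2.23). Hemin values were −1.47, −1.44, −0.90 and −0.92, of which the lower pair lay among the Control values, and the difference of 0.43 (SE 0.25) was not called (adjusted p = 0.187).

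IPC+IRI replicate 1 was also the lowest of its group for Ada, at −1.74 and among the Control values, while the other 3 arrays had −0.34, −0.65 and −0.58. IPC+IRI vs Control was 0.79 (SE 0.25, adjusted p = 0.0131), and the call was lost without IPC+IRI replicate 2 (0.62, adjusted p = 0.0533), with normexp background correction (0.34, adjusted p = 0.181) and in a fit of the compared arrays alone (adjusted p = 0.0512). IPC+IRI vs Hemin was 0.35 (SE 0.25, adjusted p = 0.292), and was 0.66 (adjusted p = 0.0162) without IPC+IRI replicate 1.

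Adk encodes adenosine kinase, the main route by which cells keep adenosine low. Log2 expression of Adk was 4.07, 4.45, 4.09 and 4.17 in Control and 4.25, 4.42, 4.30 and 3.93 in IRI, with a difference of 0.03 (SE 0.13, 95% interval −0.24 to 0.30). IRI+Hemin arrays were tightly grouped at 4.69, 4.77, 4.64 and 4.64, above every IRI and every Control array. The difference was 0.46 in IRI+Hemin vs IRI (SE 0.13, adjusted p = 0.00699) and 0.49 in IRI+Hemin vs Control (SE 0.13, adjusted p = 0.00309), fold changes of 1.38 and 1.41. Both calls were kept in the 19 alternative settings that gave an adjusted p, and both ended under SAM. IPC+IRI arrays had 4.25, 4.07, 4.14 and 4.21 and Hemin arrays 4.34, 4.39, 4.24 and 4.71, and neither group differed from Control past the threshold.

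Slc29a1 encodes ENT1, which lets adenosine cross the membrane. It was the only member called lower in Hemin vs Control. Its log2 expression was 1.88, 1.69, 1.93 and 1.74 in Control and 0.89, 1.25, 1.22 and 1.34 in Hemin, and it fell by 0.64 on the log2 scale (SE 0.15, adjusted p = 0.00461), a fold change of 1.55. IPC+IRI values were 1.30, 0.80, 1.52 and 0.82, also below every Control array, with a difference of −0.70 (SE 0.15, adjusted p = 0.000952, fold change 1.63). IRI values were 1.54, 1.71, 1.66 and 1.48, of which 1 overlapped Control, and the difference of −0.21 (SE 0.15) was not called (adjusted p = 0.264). Signals left without normalization between arrays gave −0.07 for Hemin vs Control and −0.27 for IPC+IRI vs Control, neither of them called, while the median over all genes moved up by 0.57 and 0.44 in the same comparisons.

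Slc29a1 fell in IPC+IRI vs IRI by 0.49 (SE 0.15, adjusted p = 0.0165), and this call ended without IPC+IRI replicate 2 (−0.39, adjusted p = 0.0594) or replicate 4 (−0.39, adjusted p = 0.0603), without normalization between arrays (−0.17, adjusted p = 0.56) and in a fit of the compared arrays alone (adjusted p = 0.0726). IRI+Hemin values were 1.54, 1.25, 1.32 and 1.58, all below Control, with a difference of −0.39 (SE 0.15, adjusted p = 0.0408) that was lost without Control replicate 1, 3 or 4 or IRI+Hemin replicate 2 or 3 (adjusted p from 0.0553 to 0.111), with the replicate number as a block (−0.39, adjusted p = 0.0548), with normexp background correction (−0.15, adjusted p = 0.472) and without normalization between arrays (0.10).

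**Figure D3:**
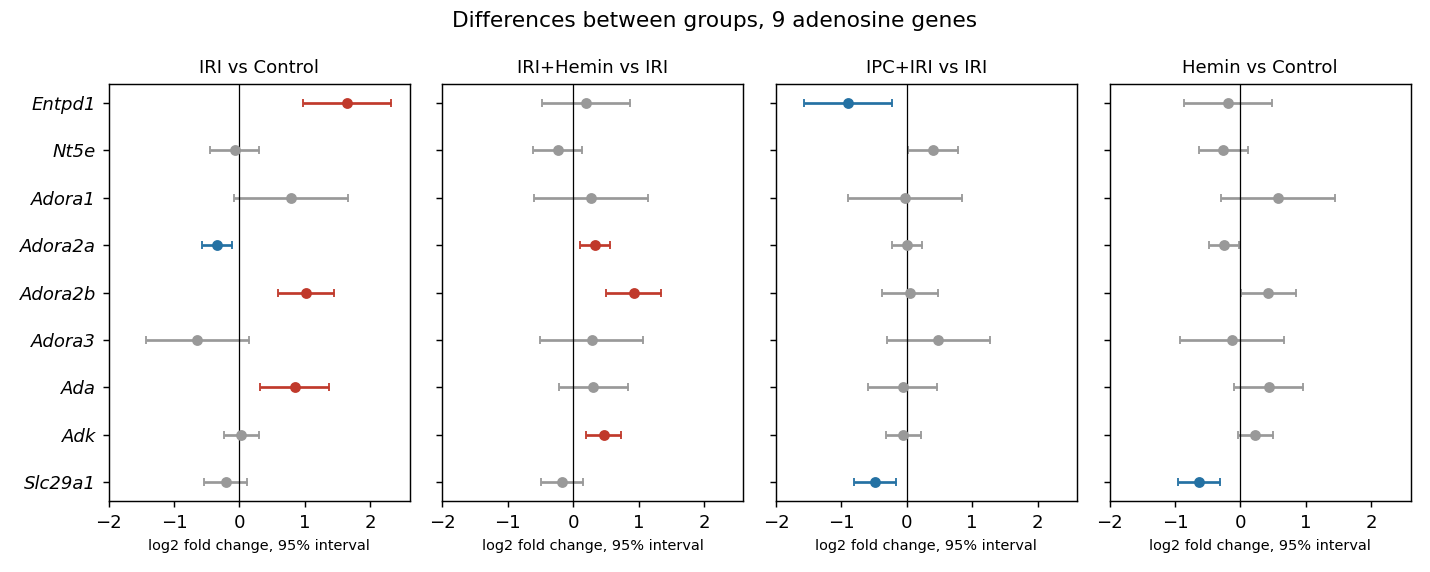
Log2 fold change of the 9 genes (horizontal axes, with 95% intervals from limma) in IRI vs Control, IRI+Hemin vs IRI, IPC+IRI vs IRI and Hemin vs Control. Red points are higher and blue points lower at an adjusted p under 0.05, and grey points did not pass. Among these 4 comparisons the largest differences were those of Entpd1 (1.64) and Adora2b (1.02) in IRI vs Control.

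Markers of other cells moved with the groups. The summed normalised signal of 8 leukocyte genes was 1.90 to 2.14 in Control and 2.00 to 3.06 in Hemin, against 4.28 to 9.49 in IRI, 3.90 to 11.3 in IRI+Hemin and 7.60 to 21.6 in IPC+IRI, but of its 7 tested genes 2 were called higher in IRI vs Control (the neutrophil genes S100a8, by 4.05, and S100a9, by 3.68), with a median difference of 0.01. The sum for 6 proximal tubule genes was 348.4 to 391.6 in Control and 295.6 to 331.3 in Hemin, against 259.9 to 360.8 in IRI, 206.8 to 266.1 in IPC+IRI and 204.2 to 271.8 in IRI+Hemin, and 3 of 6 were called lower in IRI vs Control. The sum for 4 collecting duct genes was 25.0 to 35.0 in Control and 32.9 to 49.8 in IRI, where 1 of the 4 was called higher (Aqp2, by 1.23 on the log2 scale) and 1 lower (Avpr2, by −1.68). The sum for 6 endothelial genes was 11.6 to 14.6 in Control, 12.2 to 17.02 in IRI and 16.5 to 22.6 in IRI+Hemin, and in IRI vs Control 1 of the 6 was called higher (Cdh5, by 1.39) and 2 lower (Tek, by −0.97, and Kdr, by −0.44). A sum follows its brightest genes, and these members did not move together. CD39 is known from leukocytes and endothelium and ENT1 and Adk from tubules among other cells, and the part of changing cell numbers in the values above was not tested.

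Of 40 other genes of purine signalling and metabolism, 38 were on the arrays by name and 32 were tested in IRI vs Control, where 6 were higher and 9 lower, with a median difference of −0.08, beside the 16.5% and 32.9% of all tested genes called in that comparison. The same shares stand behind the counts of each list below, and with 5 to 10 tested genes a list the counts are small. Among the other nucleoside transporters, 0 of 5 tested were higher and 3 were lower, with a median difference of −0.99. Slc28a3, a concentrative transporter, fell by 1.14 (SE 0.35, adjusted p = 0.0125) and Slc29a2, the second equilibrative transporter, fell by 1.10 (SE 0.20, adjusted p = 0.000245). The other gene called lower was Slc29a3, a transporter of lysosomes, at −0.99. Slc29a1, above, was not called in the same comparison.

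Of 5 tested genes of AMP and adenosine metabolism in the cell, 2 were higher and 1 was lower. Ampd3, an AMP deaminase, rose by 1.64 (SE 0.30, adjusted p = 0.000224), from a mean log2 expression of −1.69 ± 0.46 to −0.05 ± 0.35 (SD, n = 4). Ampd2, another AMP deaminase, fell by 0.74 (SE 0.11, adjusted p = 3.16e-05). Ampd3 was the pathway gene with the largest change in IPC+IRI vs IRI, where it fell by 1.39 (SE 0.30, adjusted p = 0.00138) to −1.44 ± 0.52. Of 5 tested genes of purine breakdown and salvage, 2 were higher and 0 were lower. Xdh, xanthine dehydrogenase, which makes uric acid, rose by 1.12 (SE 0.31, adjusted p = 0.00681). Gda, guanine deaminase, was well above background on 0 of 4 Control arrays and 3 of 4 IRI arrays. Its measured signal was 0.80 higher in IRI on the log2 scale (SE 0.28, adjusted p = 0.0268). The Control signals were at background, so no fold is read from this difference.

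Of 7 tested genes of other ectonucleotidases and ATP release, 0 were higher and 2 were lower in IRI vs Control: Alpl, alkaline phosphatase, fell by 0.57 (SE 0.16, adjusted p = 0.00665) and Acpp, prostatic acid phosphatase, fell by 0.54 (SE 0.14, adjusted p = 0.00479). Both also cut AMP to adenosine outside the cell. Of 10 tested P2 receptor genes, which bind ATP and other nucleotides, 2 were higher and 3 lower. P2rx3 fell by 1.56 (SE 0.16, adjusted p = 9.16e-07) and P2rx5 rose by 1.31 (SE 0.17, adjusted p = 1.03e-05). In IRI+Hemin vs IRI the largest change was that of Slc29a3, which rose by 1.38 (SE 0.20, adjusted p = 5.92e-05), and in Hemin vs Control that of Slc28a3, which fell by 1.63 (SE 0.35, adjusted p = 0.00228). Of 32 pathway genes tested in IRI+Hemin vs IRI, 8 were higher and 4 lower, where 25.3% and 17.4% of all tested genes were called. Of 31 tested in IPC+IRI vs IRI, 9 were higher and 5 lower (25.1% and 17% of all genes), and of 32 tested in Hemin vs Control, 10 were higher and 3 lower (17.5% and 17%).

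**Figure D4:**
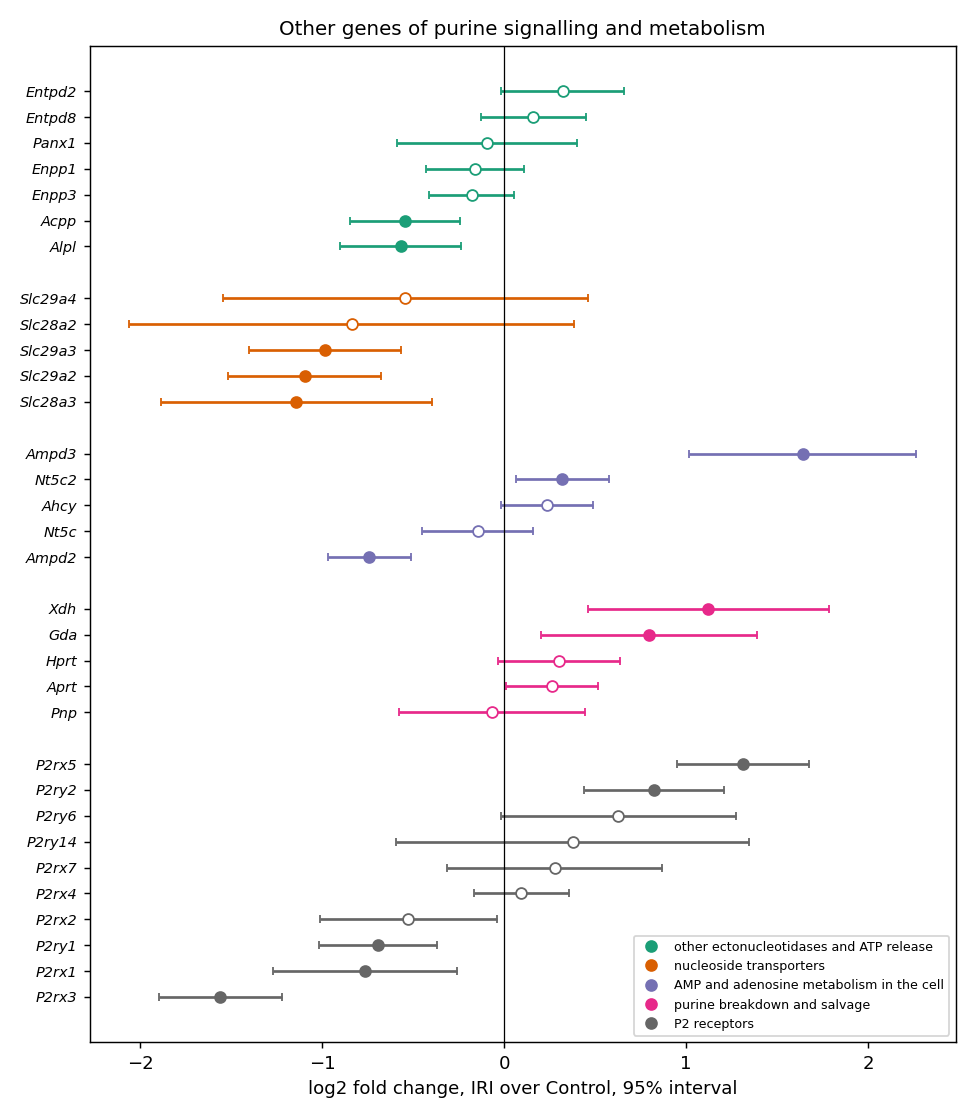
Log2 fold change in IRI over Control, with 95% intervals, of the 32 tested genes of 5 purine lists, ordered within each list. Filled points passed at an adjusted p under 0.05 and open points did not. All 5 tested nucleoside transporters lay below 0, 3 of them past the threshold.

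Over the 20 arrays, the members whose levels ran most alike were Entpd1 and Ada (Pearson r = 0.85), Entpd1 and Adora2b (0.77) and Adora2b and Ada (0.75). These are descriptions, since the arrays of a group share their slide and treatment. Among the 14537 other genes above background on all 20 arrays (14538 for Adora3, which was not itself among them), those with the profile most like Entpd1 were Plat (r = 0.96), Sema3f (0.95) and Acer2 (0.95), and those most like Adora2b were Mysm1 (0.95), Dnttip2 (0.93) and Trabd (0.92). For Ada they were Clca1 (0.95), Srgn (0.95) and Grrp1 (0.94), and for Adora1 Muc20 (0.87), Wnt7b (0.85) and Aqp2 (0.84). For Adk they were Aass (0.89), Prmt7 (0.87) and Sult1d1 (0.86), and for Adora2a Cacna2d2 (0.88), Grin2d (0.88) and a transcript with no gene name. For Slc29a1 they included Zfpl1 (0.89) and Spnb4 (0.89), with an unnamed transcript between them, and for Adora3 an unnamed transcript (0.82), Itih4 (0.78) and Adat3 (0.78). The lowest of these values were those of Nt5e, with H2-Q8 at 0.71, Itgb6 at 0.69 and 6330407A03Rik at 0.66.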

How the data were processed

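Whole kidney RNA of 20 samples, 4 per group, was hybridised to single-colour 4x44K Agilent arrays. The deposited scanner files hold processed signal intensities, from which Agilent Feature Extraction 9.5.3.1 had subtracted the background, and the deposited series matrix holds log2 values that equal the log2 of these signals within 0.001, with 18.1% of values blank. Groups and replicates were taken from the labels.

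Control spots and spots flagged as non-uniform or population outliers were left out, saturated spots were kept, spots of a probe were averaged, signals were divided by the 75th percentile of the array, and probes of a gene name were averaged before the log2. A gene was tested where at most 1 value was missing and at least 3 of 4 arrays of a compared group were well above background. One limma model (limma 3.58.1, R 4.3.3) with 5 group means and 15 residual degrees of freedom was fitted over all arrays and genes. Tested on simulated data (16304 genes, 200 changed), it recovered 60% to 87% of changes of 1 and 90% to 99% of changes of 2 on the log2 scale over the 8 comparisons. All 9 members were described in each comparison. Named with them were the 2 called genes of each purine list with the largest change in IRI vs Control, the 1 with the largest change in each of 3 further comparisons, and the 3 genes most correlated with each member. The rule for members uses names only, but members and lists were chosen with earlier results of these data known. The alternatives were another background correction, normalization, rule for probes, filter, source of values or set of arrays, a replicate block, leaving out single arrays, and the fold cutoffs and SAM test of the methods. Single probes, Adora3 by its own probe, and distances between probes with single arrays left out were added after seeing the data. Blocks for slide or scan day could not be fitted.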

Additional observations from a re-analysis of the deposited data

Results flagged for a closer look

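In the IPC+IRI group, replicate 1 had a log2 expression of −3.31 for Entpd1, while the other 3 arrays lay between −1.71 and −1.62. The gap to its nearest neighbour was 0.948 of the whole range of the group, above Dixon's critical value at the 95% level for 4 samples. This was 1 of 45 groups looked at (9 genes in 5 groups), and chance alone marks about 1 in 20 groups. The summed endothelial, fibroblast, leukocyte, erythroid and podocyte signals of the same array were also the lowest of its group. Its summed proximal tubule signal and its summed thick limb and distal tubule signal were the highest. The part of these cells in the Entpd1 value was not tested.

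The response of Adora2a to Hemin differed between kidneys with and without ischemia and reperfusion by 0.58 on the log2 scale (SE 0.15, adjusted p = 0.0265 in limma). The groups did not overlap in IRI+Hemin vs IRI or in Hemin vs Control, which held for 38.9% and 37.6% of all tested genes. The response was 0.33 in IRI+Hemin vs IRI and −0.25 in Hemin vs Control. The second of these did not pass (adjusted p = 0.0799), differed in sign between the probes (−0.33 for A_52_P240878 and 0.27 for A_51_P387348), and over other settings ran from −0.36, called, to 0.32, not called. The adjusted p ranged from 0.00633 to 0.762 over the 27 alternative settings that gave one, and 10 of them ended the call.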

How the results depend on the processing

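Of the 24 calls of members, 8 were kept in every alternative other than the fold cutoffs and the SAM test of the methods: Entpd1, Adora2b and Ada in IRI+Hemin vs Control, Entpd1 and Adora2b in IRI vs Control, Adora2b and Adk in IRI+Hemin vs IRI, and Adk in IRI+Hemin vs Control. The fold cutoffs kept 1 of the 11 calls they apply to and SAM 4 of 23. The cause of the changes below was not tested.

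Counts of members called in the higher direction, with all settings as given above, were 3 in IRI vs Control, 0 in IPC+IRI vs IRI, 2 in IPC+IRI vs Control, 3 in IRI+Hemin vs IRI, 0 in Hemin vs Control, 5 in IRI+Hemin vs Control, 3 in IPC+IRI vs Hemin and 1 in the test of both Hemin responses. In the lower direction they were 1, 2, 2, 0, 1, 1, 0 and 0 in the same order. Counts that moved by over 1.5 times are given here, and smaller moves, such as the loss of 1 of 3 calls, are not. With normexp background correction the higher count became 0 in IPC+IRI vs Control, IPC+IRI vs Hemin and the test of both responses, and the lower count 0 in IRI vs Control, 1 in IPC+IRI vs Control and 0 in IRI+Hemin vs Control. Over all genes the share called higher in the first 3 of these fell to 13.7%, 6.63% and 0.409%, against 22.6%, 12.6% and 5.34%, and the share called lower in the last 3 to 6.67%, 14.8% and 18.4%, against 32.9%, 32.1% and 32.5%. Without normalization between arrays the higher count became 1 in IPC+IRI vs IRI, 4 in IPC+IRI vs Control, 3 in Hemin vs Control, 0 in IPC+IRI vs Hemin and 0 in the test of both responses, and the lower count became 0 in each of IRI vs Control, IPC+IRI vs IRI, IPC+IRI vs Control, Hemin vs Control and IRI+Hemin vs Control. Over all genes, 47.3% were called higher and 2.56% lower in Hemin vs Control, against 17.5% and 17%, and over the 5 comparisons with a lower count of 0 the share called lower was 2.56% to 18.9%. The share called higher was 33.3% in IPC+IRI vs IRI and 34.1% in IPC+IRI vs Control, and 5.43% in IPC+IRI vs Hemin and 1.68% in the test of both responses. Quantile normalization gave 1 higher and 2 lower in Hemin vs Control, 2 lower in IRI+Hemin vs Control and 1 lower in IPC+IRI vs Hemin, and the percentile of probes above background on all arrays gave 2 lower in Hemin vs Control. The brightest probe alone gave 1 higher and 1 lower in IPC+IRI vs IRI and 0 in the test of both responses. The mean of log2 over probes gave 0 lower in IRI vs Control, 1 lower in IRI+Hemin vs IRI, 2 lower in Hemin vs Control, 2 lower in IRI+Hemin vs Control and 0 higher in the test of both responses. The deposited matrix gave 0 lower in IRI vs Control, 1 lower in IPC+IRI vs Control and 0 higher in the test of both responses. Fitting the compared arrays alone gave 0 lower in IPC+IRI vs IRI and 1 higher and 1 lower in IPC+IRI vs Control.

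With the fold cutoffs of the study, 1 member was higher and 0 lower in IRI vs Control, 0 lower in IPC+IRI vs IRI, 0 higher and 0 lower in IPC+IRI vs Control, and 0 lower in Hemin vs Control. SAM at a false discovery rate of 0 gave 1 higher and 0 lower in IRI vs Control, 0 lower in IPC+IRI vs IRI, 0 higher and 0 lower in IPC+IRI vs Control, 0 higher in IRI+Hemin vs IRI, 0 lower in Hemin vs Control, 3 higher and 0 lower in IRI+Hemin vs Control, and 0 higher in IPC+IRI vs Hemin, while over all genes it called from 196 to 979 higher and from 374 to 2097 lower.

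Leaving out each array in turn gave 3 to 3 higher and 1 to 2 lower in IRI vs Control, 0 to 1 higher and 1 to 2 lower in IPC+IRI vs IRI, 1 to 4 higher and 2 to 2 lower in IPC+IRI vs Control, 2 to 3 higher and 0 to 0 lower in IRI+Hemin vs IRI, 0 to 0 higher and 1 to 1 lower in Hemin vs Control, 4 to 5 higher and 0 to 1 lower in IRI+Hemin vs Control, 0 to 4 higher and 0 to 0 lower in IPC+IRI vs Hemin, and 0 to 1 higher and 0 to 0 lower in the test of both responses.

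Differences that turned direction were Nt5e in IRI vs Control without normalization (0.045), Nt5e in IPC+IRI vs IRI with the mean of log2 (−0.48), Adora2a in IPC+IRI vs Control without normalization (0.10) and in the deposited matrix (0.024), Adora2a in Hemin vs Control without normalization (0.32) and in the deposited matrix (0.12), Adora2b with normexp in IPC+IRI vs IRI (−0.19) and in Hemin vs Control (−0.10), Adora3 in IRI vs Control with normexp (0.17), Slc29a1 in IRI+Hemin vs Control without normalization (0.10), and Adk in IRI vs Control with normexp (−0.091), quantile normalization (−0.072) and the other percentile (−0.052). With arrays left out, IRI vs Control ranged from −0.19 to 0.031 for Nt5e and from −0.035 to 0.13 for Adk, and IPC+IRI vs IRI from −0.044 to 0.18 for Adora2b. Among the 34 other uncalled differences, 74 of 743 values changed sign and 8 gained a call in the same direction, and 2 changed sign and were called, both with the mean of log2: Nt5e in IPC+IRI vs Control (−0.55, adjusted p = 0.0386 in limma) and Adora2a in IRI+Hemin vs Control (0.44, adjusted p = 0.023). The median over all genes shifted by up to 0.57 without normalization (Hemin vs Control) and by −0.28 to 0.20 with normexp.

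Replicate numbers did not pair the samples: deviations of the 40 same-numbered pairs of arrays had a median correlation of −0.03, from −0.38 to 0.21, and 4 of 20 arrays were closest to an array of their own number. With the replicate block the call of Slc29a1 in IRI+Hemin vs Control ended (−0.39, adjusted p = 0.0548), leaving 0 members lower. Dim signals limit Adora3, above background on 16 of 20 arrays, while the other 8 genes were above it on all 20.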
